A study of Mus musculus with 6 samples.

Results

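The genes described here are the EGF receptor gene Egfr, 5 genes for ligands of the EGF receptor family (Hbegf, Areg, Ereg, Nrg1 and Tgfa) and the feedback inhibitor gene Errfi1. They were chosen by name, with earlier results of these data known. Every probe set whose single gene symbol was one of these 7 was taken. There were 16 such probe sets among the 45101 on the array, and they covered 6 of the 7 genes. Areg, which encodes amphiregulin, was listed for none of them and was not analysed here. All 6 genes had a probe set bright enough to be tested, which put them among 12917 genes tested.

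The samples were primary fibroblast cultures grown from 2 ICR mouse embryos at embryonic day 15.5, 1 culture per embryo. ICR is an outbred strain, so the cultures may differ genetically. Each culture was measured once in each of 3 groups. HS+LPS cells spent 1 h at 42 °C before receiving E. coli lipopolysaccharide (LPS), a component of the bacterial outer membrane that is sensed by Toll-like receptor 4, for 4 h; LPS cells were given 1 μg/ml LPS for 4 h without heat; Control cells were kept at 37 °C. A group given heat alone was not analysed here, so heat by itself cannot be told apart from heat acting together with LPS.

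Ligands of the EGF family are made as membrane-anchored precursors, and metalloproteases such as ADAM17 cut them from the cell surface. Released Hbegf, Ereg and Tgfa bind Egfr, while Nrg1 binds the related receptors Erbb3 and Erbb4. The bound receptor signals through Ras to the ERK kinases, which switch on early response genes, among them genes for new ligands and for inhibitors of the pathway. In fibroblasts the pathway is known for driving proliferation and migration.

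Values are scaled intensities on 1-colour arrays, and log2 differences are of log2(intensity + 3.37). Differences were tested with limma across all 12917 genes, and a gene passed at a Benjamini-Hochberg adjusted p under 0.05. The same cultures served in all groups, so the members' results are given without and with the culture as a block. In both fits limma pools a gene's spread with that of other genes, and more so with the block. Fibroblast identity was checked on 10 markers, including Col1a1 and Vim, and all 10 were above the array noise (6 to 7.67) on all 6 arrays. Of 10 epithelial markers, 2 (Epcam and Krt18) were above noise on all arrays, and Cdh1 and Esrp1 were at noise on all of them. Of 7 macrophage markers 3 (Csf1r, Adgre1 and Cd68) were above noise on all 6 arrays, and Itgam and Aif1 were at noise on all of them. Of 5 endothelial markers 3 (Kdr, Tek and Emcn) were above noise on all arrays, and Pecam1 was at noise on all.

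With LPS alone, Ereg had the largest difference from Control (2.94-fold), Errfi1 a smaller one (1.70-fold), and Hbegf was at its Control level. After heat shock and LPS, Hbegf and Errfi1 were well above both other groups in both cultures, Ereg overlapped its LPS values, and the brightest Egfr probe set was dimmer than with LPS. None of these differences passed without the block. With the culture as a block, Hbegf and Errfi1 rose and Egfr fell in HS+LPS against LPS, Hbegf, Ereg and Errfi1 rose in HS+LPS against Control, and Ereg rose in LPS against Control. In bulk cultures, fewer cells of a type and less RNA per cell cannot be told apart.

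**Figure D1:**
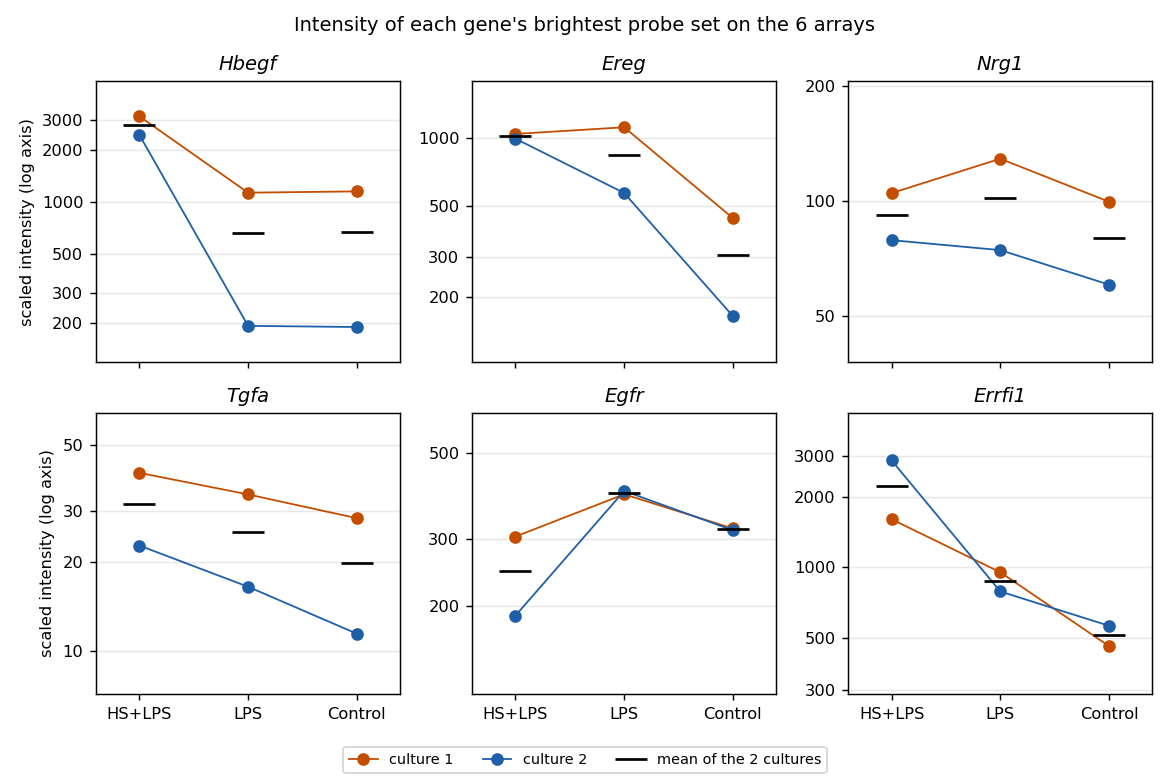
Scaled intensity (log axis, a separate range per panel) of the brightest probe set of 6 genes in HS+LPS, LPS and Control. Points joined by a line are 1 culture, and black bars are means of the 2 cultures. Hbegf and Errfi1 are highest in HS+LPS in both cultures, Ereg is lowest in Control, and culture 1 lies above culture 2 for all 4 ligands.

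For HS+LPS against LPS, 0 of the 6 members passed without the block, where limma called 1.34% of all genes (0.511% higher and 0.828% lower); Errfi1 (higher) and Egfr (lower) had an unadjusted p under 0.05. With the block 2 rose and 1 fell, where 18.9% of all genes were called, 6.32% higher and 12.6% lower. For HS+LPS against Control, 0 of 6 passed without the block (0.178% of all genes, 0.17% higher and 0.00774% lower), Ereg and Errfi1 were under 0.05 before adjustment, and 3 rose with the block (17.2% of all genes, 5.09% higher and 12.1% lower). For LPS against Control, 0 of 6 passed without the block (0.147% of all genes, all of them higher), the same 2 were under 0.05 before adjustment, and 1 rose with the block (2.78% of all genes, 2.06% higher and 0.72% lower). The median log2 difference of the 6 members was 0.33, 1.27 and 0.33 in these 3 comparisons, and that of all genes tested was -0.05, -0.09 and -0.05. The comparisons share arrays, so their values are not independent of one another.

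Hbegf encodes heparin-binding EGF-like growth factor, a ligand of Egfr and Erbb4. Its brightest probe set read 3135 and 2448 in cultures 1 and 2 with HS+LPS, 1134 and 193 with LPS, and 1154 and 189.7 in Control. The HS+LPS arrays were above all 4 others, while LPS and Control were nearly equal within each culture. The cultures themselves differed: culture 1 was 1.28 times as bright as culture 2 with HS+LPS, 5.89 times with LPS and 6.09 times in Control.

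HS+LPS against LPS gave a 5.87-fold difference for Hbegf (log2 difference 2.55, SE 1.06, adjusted p = 0.304). In the blocked fit the SE was 0.44 and the adjusted p 0.0053, within a range of 4.03e-14 to 0.69 over 24 alternatives. The log2 difference was 1.46 in culture 1 and 3.64 in culture 2, so the direction was shared but the size was not. The blocked call was lost without the LPS array of culture 2 (adjusted p = 0.0519). Against Control the log2 difference was 2.55 as well (adjusted p = 0.315, 0.00603 with the block). It ran from 1.451 to 3.655 in blocked fits with 1 array left out.

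A second, dimmer Hbegf probe set read 1121 and 851 with HS+LPS, 409 and 45.7 with LPS, and 371 and 72.5 in Control. Its HS+LPS arrays were also above all 4 others. Tested among 27022 probe sets, its log2 difference of HS+LPS against LPS was 2.79 (SE 1.11, adjusted p = 0.352, with the block 0.00526). LPS alone left Hbegf at a log2 difference of -0.03 in culture 1 and 0.02 in culture 2 in the brightest probe set, and at 0.14 and -0.63 in the second.

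Ereg encodes epiregulin, a ligand of Egfr and Erbb4. It has 1 probe set, which read 1044 and 994 with HS+LPS, 1116 and 572 with LPS, and 444 and 164 in Control. All 4 arrays that received LPS lay above both Control arrays, and the HS+LPS and LPS arrays overlapped. In LPS against Control the difference was 2.94-fold (log2 difference 1.55, SE 0.51, adjusted p = 0.823). It passed in the blocked fit (SE 0.24, adjusted p = 0.0112, over 24 alternatives 1.96e-09 to 1.00), with log2 differences of 1.33 and 1.78 in cultures 1 and 2. That call was lost when the LPS array of culture 1 was left out of the blocked fit (adjusted p = 0.0795).

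Ereg in HS+LPS against Control differed 3.74-fold (log2 difference 1.90, adjusted p = 0.157, with the block 0.00188, over 24 alternatives 1.28e-10 to 0.493). With 1 array left out of the blocked fit, the log2 difference of Ereg ran from 1.34 to 2.46. Against LPS its difference was 0.35 ± 0.51 (SE; adjusted p = 0.795, with the block 0.357, over 24 alternatives 4.55e-05 to 0.947), with -0.10 in culture 1 and 0.79 in culture 2. With the block Ereg thus passed in both groups given LPS when set against Control, and Hbegf in HS+LPS; whether the genes differ in this was not tested. Culture 1 was 1.05, 1.95 and 2.71 times as bright as culture 2 with HS+LPS, with LPS and in Control.

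Tgfa encodes transforming growth factor alpha, which binds Egfr. Its brightest probe set was dim, at 40.2 and 22.8 with HS+LPS, 34.0 and 16.5 with LPS, and 28.3 and 11.5 in Control. Within each culture HS+LPS was highest and Control lowest, but the groups overlapped, with culture 1 brighter throughout. The log2 difference of HS+LPS against Control was 0.64 (SE 0.51, adjusted p = 0.625 and 0.111 with the block, over 23 alternatives 0.08 to 0.967). A second Tgfa probe set read 22.5 and 18.4 with HS+LPS, 17.7 and 12.9 with LPS, and 21.9 and 23.5 in Control, which is another order of the groups. The third was above noise on 1 of 6 arrays and was not tested.

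Nrg1 encodes neuregulin 1, the ligand of Erbb3 and Erbb4. Its single probe set read 105 and 78.9 with HS+LPS, 129 and 74.3 with LPS, and 99.5 and 60.3 in Control. All groups overlapped, and its log2 differences of -0.10 (HS+LPS against LPS) and 0.33 (LPS against Control) did not pass (adjusted p = 0.926 and 0.999, with the block 0.669 and 0.342). As for the other 3 ligands, culture 1 was brighter than culture 2 in all 3 groups. With 1 embryo per culture this difference has no replicate and was not tested.

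Egfr encodes the receptor tyrosine kinase that binds EGF, Hbegf, Ereg and Tgfa. Its brightest probe set read 304 and 189 with HS+LPS, 391 and 399 with LPS, and 319 and 315 in Control. HS+LPS was lowest and LPS highest, and the 3 groups did not overlap. In HS+LPS against LPS the log2 difference was -0.71 (SE 0.23, adjusted p = 0.202), and with the block Egfr fell (SE 0.16, adjusted p = 0.016, over 24 alternatives 2.03e-06 to 0.53). It was -0.36 in culture 1 and -1.07 in culture 2, and without the LPS array of culture 2 the blocked call was lost (adjusted p = 0.156). The differences from Control were -0.40 for HS+LPS and 0.32 for LPS, and neither passed (adjusted p = 0.461 and 0.999, with the block 0.123 and 0.391).

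The other Egfr probe sets did not all move with the brightest one. There were 7 in all, of which 5 were past the filter on dim signals. The second brightest read 203 and 146 with HS+LPS, 189 and 156 with LPS, and 194 and 150.3 in Control, so its groups overlapped. The third read 149.8 and 117 with HS+LPS, 209.7 and 152 with LPS, and 158 and 145 in Control. From brightest to dimmest the mean log2 differences of HS+LPS against LPS were -0.71, 0.00, -0.42, -0.40 and -0.07. Their blocked adjusted p among 27022 probe sets were 0.0184, 1.00, 0.0528, 0.101 and 0.90, so 1 of 5 passed. The decrease of Egfr therefore rests on its brightest probe set.

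**Figure D2:**
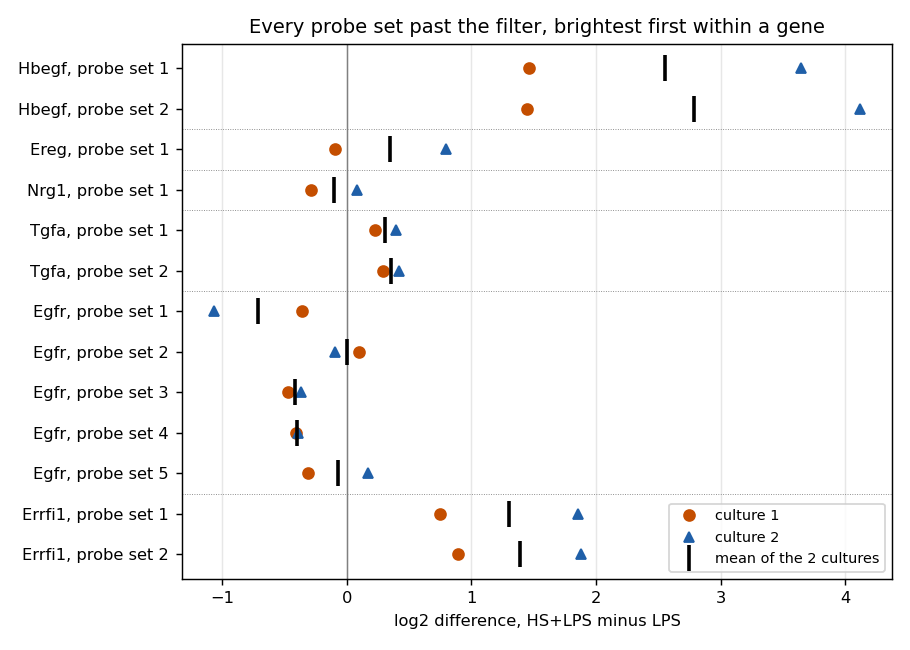
Log2 difference of HS+LPS minus LPS for the 13 probe sets past the filter, brightest first within each gene. Circles are culture 1, triangles culture 2 and bars their means. Both Hbegf and both Errfi1 probe sets lie above 0 in both cultures, and the 5 Egfr probe sets range from -0.71 to 0.00 in their means.

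Errfi1, also known as Mig6, encodes a cytoplasmic protein that is induced by EGF receptor signalling and binds and inhibits the receptor's kinase domain. Its promoter is shown because, of the 3 members that passed with the block in HS+LPS against LPS, it alone did so whichever array was left out. RefSeq promoter windows, from 250 bases before to 50 after a start site, were held for 4 of the 7 members (Areg, Tgfa, Egfr and Errfi1), and Errfi1 has 2 of them. The downstream one lies at chr4:150854820-150855119 (GRCm38.p6, plus strand), and capitals mark its match to the cyclic AMP response element, TGACGTCA:
Errfi1 promoter: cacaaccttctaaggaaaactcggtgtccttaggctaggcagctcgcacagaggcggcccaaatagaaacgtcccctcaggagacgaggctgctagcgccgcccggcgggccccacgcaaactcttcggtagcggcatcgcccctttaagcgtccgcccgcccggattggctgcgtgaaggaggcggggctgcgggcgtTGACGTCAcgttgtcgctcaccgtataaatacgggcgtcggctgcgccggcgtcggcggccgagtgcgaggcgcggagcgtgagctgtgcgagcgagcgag

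The match spans bases -51 to -44 from the start site. In the upstream Errfi1 window, this element and its core, TGACG, matched 0 times. The same 8 letters stood in 1.79% of the 32851 mouse promoter windows, and in the Areg window at -61 to -54. AP-1 (TGANTCA), heat shock element (GAANNTTC and TTCNNGAA), CArG box and NF-kB motifs were searched on both strands of the Errfi1 windows and matched 0 times. They stood in 7.81%, 7.86%, 8.52%, 1.63% and 8.46% of all windows. The core TGACG, which overlaps the full element, matched 2 times, within those same 8 bases, against 20.8% of windows with a match. The Egfr window held 0 matches to any of these, and the Tgfa window 1 NF-kB match at 23 to 32.

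The brightest Errfi1 probe set read 1604 and 2859 with HS+LPS, 952 and 788 with LPS, and 461 and 563 in Control. The 3 groups did not overlap, and in both cultures Control was lowest and HS+LPS highest. HS+LPS against LPS gave a 2.47-fold difference (log2 difference 1.30, SE 0.28, adjusted p = 0.102). It passed in the blocked fit (SE 0.20, adjusted p = 0.00321). With 1 array left out of the blocked fit, it ran from 0.89 to 1.72 on the log2 scale. The log2 difference was 0.75 in culture 1 and 1.86 in culture 2.

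HS+LPS against Control gave 4.19-fold for Errfi1 (log2 difference 2.07, SE 0.28, adjusted p = 0.0618 and 0.000552 with the block). Blocked fits with 1 array left out gave log2 differences of 1.65 to 2.48. LPS against Control gave 1.70-fold (log2 difference 0.76, adjusted p = 0.931, with the block 0.101, over 24 alternatives 5.75e-05 to 1.00). The second Errfi1 probe set, of the type that can match related transcripts, read 998 and 2031 with HS+LPS, 537 and 548 with LPS, and 292 and 368 in Control. It kept the order of the groups, with log2 differences of 1.39 against LPS and 2.11 against Control (blocked adjusted p = 0.00171 and 0.000289 among 27022 probe sets). With HS+LPS culture 2 was the brighter culture, at 0.561 for culture 1 over culture 2, which is opposite to the ligands.

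**Figure D3:**
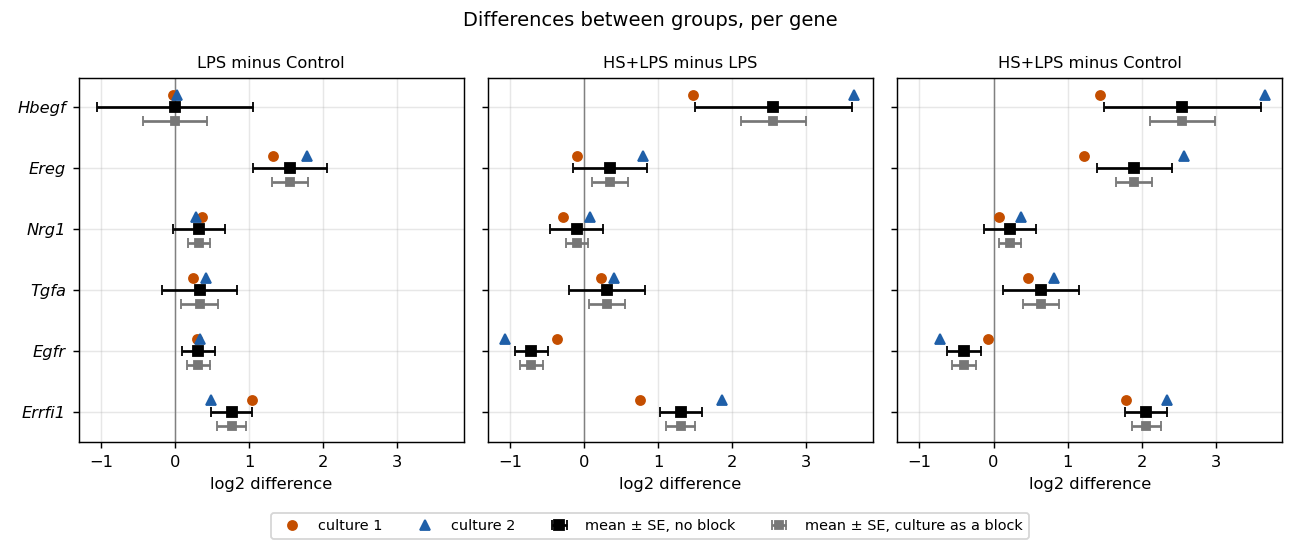
Log2 differences of LPS minus Control, HS+LPS minus LPS and HS+LPS minus Control for 6 genes. Black squares are means with the SE of the fit without the block, grey squares the same means with the blocked SE, and circles and triangles are cultures 1 and 2. Hbegf and Errfi1 lie to the right of 0 in both HS+LPS comparisons, and the SE of Hbegf is 1.06 without and 0.44 with the block.

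The rest of the pathway was followed in 62 other genes, of which 54 were tested. In HS+LPS against LPS, 2 rose and 1 fell without the block (1.34% of all genes called, 0.511% higher and 0.828% lower). With the block 17 rose and 13 fell (18.9% of all genes called, 6.32% higher and 12.6% lower). Their median log2 difference was 0.15, against -0.05 over all genes. The 2 that rose were Dusp6, a phosphatase that inactivates cytoplasmic ERK, and Dusp5, its nuclear counterpart. Dusp6 read 838 and 1343 with HS+LPS against 315 and 303 with LPS (log2 difference 1.77, SE 0.24, adjusted p = 0.0352, blocked 0.000558), and Dusp5 903 and 1100 against 131 and 70.4 (log2 difference 3.33, SE 0.45, adjusted p = 0.0342, blocked 0.000148). Sos1, the exchange factor that loads Ras with GTP, fell: it read 193 and 170.3 with HS+LPS and 366 and 402 with LPS (log2 difference -1.07, SE 0.14, adjusted p = 0.0319, blocked 0.000377).

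Of 6 other ErbB ligands 4 were tested, and 1 passed with the block: betacellulin (Btc), a ligand of Egfr and Erbb4, read 64.6 and 30.6 with HS+LPS, 10.4 and 10.1 with LPS, and 17.0 and 18.6 in Control. Its log2 difference of HS+LPS against LPS was 1.82 (adjusted p = 0.0892, with the block 0.0064). Like Hbegf, Btc was highest in HS+LPS in both cultures. Of the receptors Erbb2 and Erbb3, Erbb2 fell with the block, at 29.1 and 50.3 with HS+LPS against 61.7 and 65.4 with LPS (log2 difference -0.68, adjusted p = 0.339, with the block 0.0458). Erbb4 was not tested.

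Of 9 ligand shedding genes, 0 passed without the block in HS+LPS against LPS (before adjustment 0 higher and 3 lower had p under 0.05). With the block 5 fell and 1 rose, where 12.6% of all genes fell and 6.32% rose. The 1 that rose was the metalloprotease inhibitor gene Timp3, not a sheddase (log2 difference 0.27, adjusted p = 0.734, with the block 0.0488). Adam17, the main sheddase of EGF receptor ligands, read 177 and 239.7 with HS+LPS, 262 and 388 with LPS, and 204 and 305 in Control. Its log2 difference of HS+LPS against LPS was -0.62 (limma adjusted p = 0.349, with the block 0.00321). That of HS+LPS against Control was -0.27 and did not pass (adjusted p = 0.743, with the block 0.0866). Rhbdf2, or iRhom2, which carries Adam17 to the cell surface, read 54.1 and 59.4 with HS+LPS, 90.5 and 114 with LPS, and 37.0 and 59.3 in Control. It rose with LPS and fell in HS+LPS against LPS with the block (log2 differences 1.06 and -0.81, adjusted p = 0.539 and 0.211, with the block 0.0139 and 0.0144).

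Of 17 receptor and ERK inhibitors, 2 rose without the block, as given above. With the block 7 rose and 5 fell (median 0.27), where 6.32% of all genes rose and 12.6% fell. Dusp4, another nuclear ERK phosphatase, read 462 and 723 with HS+LPS against 134 and 50.5 with LPS (log2 difference 2.76, adjusted p = 0.102, with the block 0.00252). Lrig1, a transmembrane protein that promotes degradation of ErbB receptors, read 108 and 175 with HS+LPS, 293 and 396 with LPS, and 124 and 153 in Control. Lrig1 was thus high with LPS and near its Control level in HS+LPS, with log2 differences of 1.29 (LPS against Control) and -1.29 (HS+LPS against LPS). These did not pass without the block (adjusted p = 0.377 and 0.101) and passed with it (0.000688 and 0.000253); they share the LPS arrays. Spry1, a Sprouty inhibitor of receptor signalling to ERK, fell with the block by 1.09 and its relative Spry2 rose by 0.87 on the log2 scale (adjusted p = 0.115 and 0.077, with the block 0.00137 and 0.00298).

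Of 10 tested adaptors and ERK cascade genes, Sos1 passed without the block and 1 rose and 2 fell with it (all genes 6.32% and 12.6%). Of 12 genes that ERK is known to induce, 0 passed without the block (before adjustment 5 higher and 0 lower had p under 0.05). With the block 7 of the 12 rose and 0 fell, where 6.32% of all genes rose and 12.6% fell. The median of the 12 was 0.92. Fos, an AP-1 subunit, read 408 and 951 with HS+LPS against 81.9 and 163 with LPS (log2 difference 2.40, adjusted p = 0.0918, with the block 2.6e-05). Phlda1, an early response gene, read 2351 and 2424 with HS+LPS against 827 and 426 with LPS (log2 difference 2.00, adjusted p = 0.0835, with the block 0.000391). Not all of the list rose: Ier3, Etv4, Etv5, Myc and Ccnd1 passed in neither fit (log2 differences 0.37, 0.39, -0.13, 0.65 and 0.16).

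**Figure D4:**
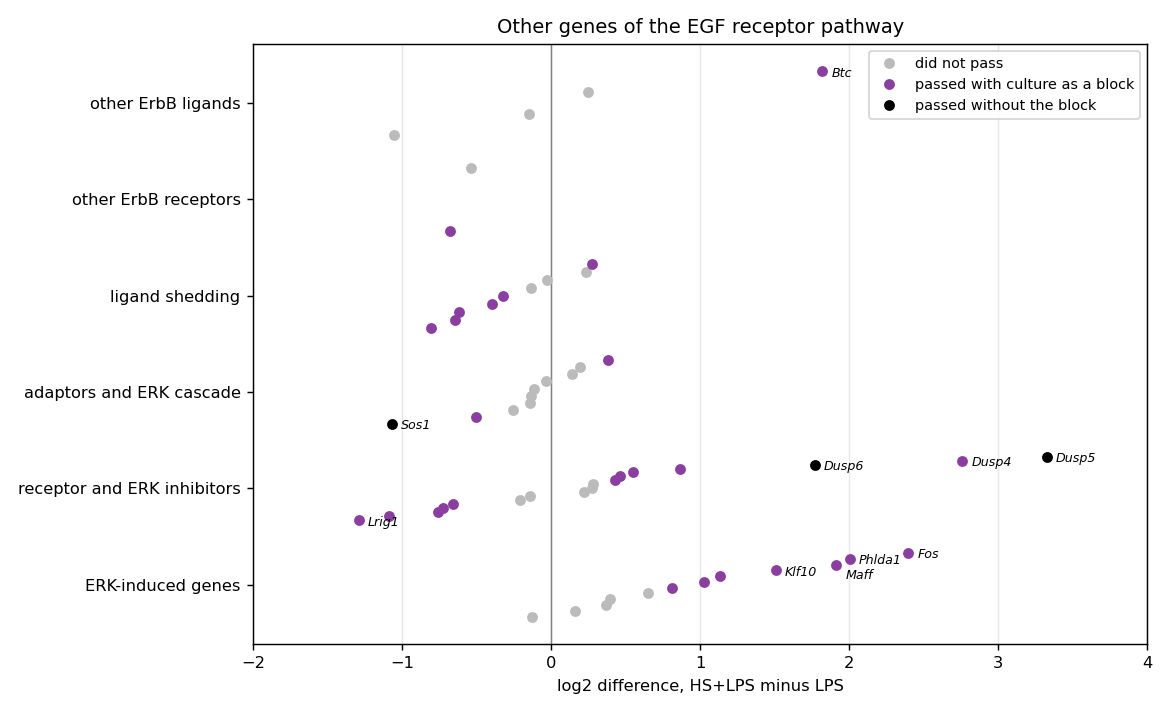
Log2 difference of HS+LPS minus LPS for the 54 tested pathway genes outside the 6 members, by role. Black points passed without the block (Dusp5, Dusp6 and Sos1), purple points only with the culture as a block, and grey points in neither fit. ERK-induced genes have a median of 0.92 and ligand shedding genes one of -0.32.

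For HS+LPS against Control 0 of the 54 pathway genes passed without the block, where 0.178% of all genes did (before adjustment 17 higher and 7 lower had p under 0.05), and with it 19 rose and 8 fell, where 5.09% of all genes rose and 12.1% fell (median of the 54 0.08, all genes -0.09). For LPS against Control 0 passed without the block, where 0.147% of all genes did (before adjustment 4 higher and 0 lower had p under 0.05) and with it 3 rose, where 2.06% of all genes did (median of the 54 -0.01, all genes -0.05). They were Lrig1, Rhbdf2 and Ier3, an early response gene. Ier3 read 2217 and 1437 with LPS against 1403 and 727 in Control (log2 difference 0.82, adjusted p = 0.999, with the block 0.0477).

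The summed signal of the 10 epithelial markers ran from 129.6 to 167 with HS+LPS, 62.9 to 120.5 with LPS and 65.5 to 87.7 in Control. The HS+LPS arrays lay above those of the other groups, as they did for Hbegf and Errfi1. Only 2 of these 10 markers were above noise on all 6 arrays, so the sums are partly noise. Whether epithelial cells were present, and any part of theirs in the differences of Hbegf and Errfi1, was not tested. The summed fibroblast markers, at 28349 to 32916 with HS+LPS, 28599 to 31999 with LPS and 26959 to 36777 in Control, overlapped between the groups. Single markers differed between the cultures: in Control, Lum read 119 in culture 1 and 1699 in culture 2, Dcn 333 and 1862, and Pdgfra 302 and 1036. Pdgfrb, Vim and Fn1 were near equal in the 2 cultures there. Whether the cultures differed in cell make-up was not tested. Of the 10 fibroblast markers 1 fell in HS+LPS against LPS without the block, the PDGF receptor gene Pdgfrb (log2 difference -0.81, adjusted p = 0.0277, blocked 0.000212). With the block 2 fell, Pdgfrb and its relative Pdgfra (log2 difference -0.96, adjusted p = 0.74, blocked 0.0073). Of the 6 tested epithelial markers 0 passed without the block and 1 rose with it, the keratin gene Krt18, at 18.4 and 51.4 with HS+LPS against 8.44 and 14.6 with LPS (log2 difference 1.25, adjusted p = 0.281, blocked 0.0464).

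The tested genes whose pattern over the 6 arrays was most like each member's were found by the root mean square difference of log2 values after each gene was centred on its own mean. For Errfi1 they were Nfkbid (0.169), Lonrf3 (0.171) and Junb (0.211). For Hbegf they were Crct1 (0.459), Dusp1 (0.474) and Maff (0.476), all with larger distances. The genes nearest to Ereg were Magea7-ps (0.24), Ptgs2 (0.35) and Pigz (0.352), and those nearest to Egfr were Zhx2 (0.0808), Gdpd5 (0.0896) and Efl1 (0.0904). These are distances on the log2 scale over 6 arrays from 2 cultures, given as a description.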

How the data were processed

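Biotin-labelled cRNA from total RNA was hybridised to Affymetrix mouse genome arrays, per the labels. The deposited values are linear intensities, 1 per probe set and array; their mean after trimming 2% at each end was 100 on every array, and the software that made them is not given in the sources used here. Equal scaling hides differences in total mRNA, and the number of arrays, 2 per group, limits the precision. Array medians were 11.9 to 14.4.

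GEO's platform annotation gave 1 gene symbol for 34958 probe sets, and RefSeq changed 0 of them. Intensities were turned into log2(intensity + 3.37), 3.37 being the 25th percentile. The 64 array control probe sets were left out, then those whose mean log2 signal was below its 40th percentile. The brightest remaining probe set stood for its gene. Noise is the brightest of 27 Bacillus subtilis control probe sets on an array. limma 3.58.1 in R 4.3.3 (eBayes with an intensity trend) fitted the 3 groups on all 6 arrays, with Benjamini-Hochberg adjustment over all genes. It was tested on simulated data with normal noise and a culture offset equal in all groups. That simulation does not cover group differences that vary by culture. The fit used throughout has no block, since the protocols name none. Per the labels an array number marks 1 embryo, and same-numbered arrays correlated, as deviations from their group's mean over genes, at 0.622 (LPS and Control), 0.568 (HS+LPS and Control) and 0.535 (HS+LPS and LPS), so the culture as a block was added. P-values without the block measure the spread between these 2 cultures. Those with the block measure how far the differences between groups varied between the 2 cultures, after the shift shared by all groups was removed. In both fits eBayes pools each gene's spread with that of other genes. That pooled part weighed as 2.98 degrees of freedom beside 3 residual ones without the block, and as 6.73 beside 2 with it. Blocked p-values thus rest more on the spread of other genes than on how alike a gene's own 2 cultures were.

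The members and lists were chosen with earlier results of these data known. Pathway genes are named from those that passed without or with the block, at most 6 per list and comparison by size. The ERK-induced genes that passed in neither fit in HS+LPS against LPS are named as well. Genes of like pattern are named for members that passed with or without the block. Alternatives were the pseudocount, filter, scaling, probe set rule, trend, block and each array left out; the block joined to scaling or to left-out arrays, and each probe set on its own, were added after seeing the data.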

Additional observations from a re-analysis of the deposited data

How the results depend on the processing

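No member passed in any comparison under the alternatives to pseudocount, filter, scaling, probe set rule and trend, nor in any fit without the block that left out 1 array. The replicate block called 359, 2443 and 2219 of all genes, 1, 3 and 3 members and 3, 30 and 27 pathway genes in LPS against Control, HS+LPS against LPS and HS+LPS against Control; without it the counts were 19, 173 and 23, 0, 0 and 0, and 0, 3 and 0. The block with quantile normalization called 352, 2117 and 1814 genes, 1, 3 and 3 members and 2, 26 and 24 pathway genes. The block with median centring called 488, 2410 and 2282, 2, 3 and 3, and 6, 29 and 29. Without the trend 5, 84 and 13 genes passed, and 0 pathway genes in HS+LPS against LPS. In HS+LPS against Control, 58 genes passed with pseudocount 16, 37 with the filter at the 60th percentile and 59 with median centring, which also called 3 pathway genes. The cause of these shifts was not tested.

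With 1 array left out, without or with the block, the calls ran from 0 to 1010, 8 to 2919 and 8 to 2894 for all genes, 0 to 3, 0 to 4 and 0 to 4 for members, and 0 to 12, 0 to 30 and 0 to 29 for pathway genes. Those fits reversed signs that had not passed: Hbegf ran from -1.29 to 1.29, Nrg1 from -0.060 to 0.71 and Tgfa from -0.21 to 0.88 in LPS against Control; Ereg from -0.21 to 0.91, Nrg1 from -0.49 to 0.28 and Tgfa from -0.15 to 0.76 in HS+LPS against LPS; and Nrg1 from -0.12 to 0.57 in HS+LPS against Control. Quantile normalization turned Nrg1 in HS+LPS against LPS to 0.011, with and without the block, and the mean of all probe sets turned Tgfa in LPS against Control to -0.079. The signs of Errfi1 and Egfr held in the alternatives that give 1 value per gene, as did those of Hbegf and Ereg in the comparisons they passed with the block. Taken singly, other Egfr probe sets differed from the brightest one (-0.40) in HS+LPS against Control, with 0.25 and 0.011 in 2 of them, and 1 was at 0.00 in HS+LPS against LPS. Blocked fits with an array left out keep 1 residual degree of freedom and 1 array in a group, so they cannot show that a call is stable. Signals near noise, as for Tgfa, limit what these arrays can show.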
